A study of Mus musculus with 6 samples.

Results

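Endothelial cells line the lung vessels and hold the balance between clotting and clot removal. The 7 genes described here encode the parts of that balance that endothelium is known for: Vwf, the multimeric protein that tethers platelets to injured vessel wall; F3, tissue factor, the cell-surface trigger of coagulation; Tfpi, the inhibitor of the tissue factor pathway; Thbd, thrombomodulin, which turns thrombin into an activator of protein C; Procr, the endothelial protein C receptor; and the plasminogen activators Plat (tPA) and Plau (uPA), which start the breakdown of fibrin. The genes were listed by name, with earlier results of these data known, and each was followed over its RefSeq gene span plus 10 kb on each side. All 7 of 7 listed genes were found, among 20409 protein-coding genes with data, and their windows held 361 of the 1954255 measured tiles of 1 kb on chromosomes 1 to 19. The windows span 377 tiles of the 1 kb grid, of which 16 have no data (7 in Vwf, 4 in Thbd, 3 in Tfpi, 1 in Procr and 1 in Plau). A run of adjacent tiles ends at such a gap.

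Dnmt3a is a de novo DNA methyltransferase, which adds methyl groups to cytosines, chiefly where a guanine follows (CpG). In vertebrate genomes most CpGs are methylated, while active or poised promoters and many enhancers are kept low, and de novo and maintenance enzymes together set the level at each place. The study compared lung endothelial cells, sorted by flow cytometry, from Dnmt3a knockout mice (KO, 3 samples) with those from wild-type mice (WT, 3 samples), and measured their DNA by tagmentation-based whole-genome bisulfite sequencing, in which unmethylated cytosines are converted and read as thymine. The labels give the genotypes as ko and wt, and methylation levels do not check them. No source used here states the allele, any Cre driver, the age of the mice or whether a sample came from 1 mouse or a pool. The p-values therefore reflect variation among these 6 samples, and part of it may be technical. Levels are percentages of methylation per tile. They come with no read counts, so the depth behind a value is unknown, and no counting interval or floor is given.

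As a check of the cell type, levels were read at the starts of marker genes. The 7 endothelial markers of 10 with a known strand were at 3.79 to 24.0% in KO and 5.68 to 25.5% in WT. The 5 leukocyte markers were at 21.7 to 72.8% in KO and 29.8 to 73.5% in WT, and the 4 platelet markers at 49.1 to 58.4% in KO and 49.0 to 69.4% in WT. Of the 3 epithelial and 3 mesenchymal starts, Nkx2-1 (1.24% in KO, 1.66% in WT) and Pdgfra (0.831% in KO, 1.67% in WT) lay below the endothelial range and Col1a2 (4.997% in KO, 15.1% in WT) within it, so low methylation at a start does not single out endothelium. By the rule given below, 1 of the 5 leukocyte, 1 of the 3 epithelial, 2 of the 3 mesenchymal and 2 of the 4 platelet starts (Gp9 and Ppbp) were called lower in KO, against 17.4% of all starts. None of the 7 endothelial starts was called, of which Cldn5 and Tek, at 5.68% and 8.79% in WT, had no room to lose 10 points. Of the endothelial marker bodies 7 of 9 fell, against 52.0% of all bodies. In a bulk sample a change in the mix of cells and a change within the cells cannot be told apart, and the part of such a mix in the results below was not tested. The mean level over all tiles was 63.5, 63.7 and 63.8% in KO and 69.5, 68.8 and 68.7% in WT, so each difference below lies on a genome-wide loss. The shift was also removed, by centring each sample on its median tile or by scaling each to 1 mean level. For the 7 genes, values and counts after that are given beside the calls of starts, ends, bodies, flanks and windows that ended, and beside the tile counts. Calls of single genes outside the 7 were not followed after it.

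RefSeq (GRCm38.p6) gives promoter windows, with 250 bases before and 50 bases after a transcript start, for 3 of the 7 genes: F3, Procr and Tfpi. They are shown because CpGs are what Dnmt3a methylates and because these genes differ in how many they carry at their starts. Capitals mark each CpG on the printed strand. F3 lies on the plus strand (chr3:121723287-121723586), Procr on the plus strand (chr2:155750967-155751266), and Tfpi on the minus strand with an upstream window (chr2:84476710-84477009) and an internal one (chr2:84474125-84474424).
F3: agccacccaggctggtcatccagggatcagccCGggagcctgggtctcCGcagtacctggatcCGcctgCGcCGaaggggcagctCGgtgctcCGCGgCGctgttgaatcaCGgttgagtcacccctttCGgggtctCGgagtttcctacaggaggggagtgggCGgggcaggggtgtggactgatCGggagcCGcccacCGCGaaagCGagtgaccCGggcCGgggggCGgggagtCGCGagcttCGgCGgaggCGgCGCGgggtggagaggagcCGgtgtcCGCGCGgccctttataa
Procr: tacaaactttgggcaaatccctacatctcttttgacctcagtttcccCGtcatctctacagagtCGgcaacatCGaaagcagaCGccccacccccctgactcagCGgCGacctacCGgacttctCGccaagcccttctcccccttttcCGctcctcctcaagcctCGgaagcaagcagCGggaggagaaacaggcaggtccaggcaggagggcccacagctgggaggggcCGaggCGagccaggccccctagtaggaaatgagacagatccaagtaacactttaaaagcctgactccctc
Tfpi upstream: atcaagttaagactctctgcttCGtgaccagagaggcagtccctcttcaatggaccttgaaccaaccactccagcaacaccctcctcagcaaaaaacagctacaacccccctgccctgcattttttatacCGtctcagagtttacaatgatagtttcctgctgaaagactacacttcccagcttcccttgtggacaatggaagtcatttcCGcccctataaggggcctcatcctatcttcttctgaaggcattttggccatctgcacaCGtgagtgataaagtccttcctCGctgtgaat
Tfpi internal: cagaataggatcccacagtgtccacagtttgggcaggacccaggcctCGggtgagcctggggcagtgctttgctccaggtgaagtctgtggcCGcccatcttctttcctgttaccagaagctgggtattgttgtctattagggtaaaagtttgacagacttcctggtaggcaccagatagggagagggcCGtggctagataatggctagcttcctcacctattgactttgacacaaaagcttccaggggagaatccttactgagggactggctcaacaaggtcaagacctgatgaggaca

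The window of F3 holds 32 CpGs, a number that 9.52% of the 32851 RefSeq promoter windows reach or exceed. That of Procr holds 13 (37.9% of windows reach it), and those of Tfpi hold 5 (62.0%) and 3 (76.7%). The tile over the F3 window was at 0.837% in KO and 1.99% in WT. The 2 tiles that touch the Procr window averaged 10.9% in KO and 15.3% in WT. The 2 that touch the upstream Tfpi window averaged 21.6% in KO and 24.9% in WT. In both cases most of the printed window lies in 1 of the 2 tiles, the one with the gene start. That tile was at 4.45% in KO and 5.66% in WT for Procr. For Tfpi it was at 1.89% in KO and 3.90% in WT. The tile over the internal Tfpi window was at 14.7% in KO and 21.4% in WT. Without a strand in the RefSeq table, the ends of Vwf, Thbd, Plat and Plau are named by coordinate, lower or higher, and neither is called a start.

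Methylation was lower in KO around all 7 genes. A tile was called when limma gave an adjusted p under 0.05 and the difference was at least 10 points. Of the 361 tiles 156 fell (43.2%), against 16.2% of all tiles, and 2 rose, both in Vwf, against 0.0796% of all tiles. At an unadjusted p under 0.05, 4 of the 361 were higher, against 12334 of all 1954255 tiles (limma). After centring 84 of the 361 were lower, against 6.64% of all tiles, and 3 higher, against 0.931%. After scaling 87 were lower, against 6.58%, and 4 higher, against 1.57%. The share of gains was then near that of all tiles. The median difference over these tiles was -9.12 points, and it was -4.05 over all tiles. The mean level of the 361 tiles was 55.5, 55.8 and 56.1% in KO and 67.45, 66.1 and 66.5% in WT. The groups did not overlap and differed by -10.8 points (exact permutation test, two-sided, p = 0.1, below which 3 against 3 samples cannot go). Tiles of 1 gene are neighbours on the same DNA and are not replicates.

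**Figure D1:**
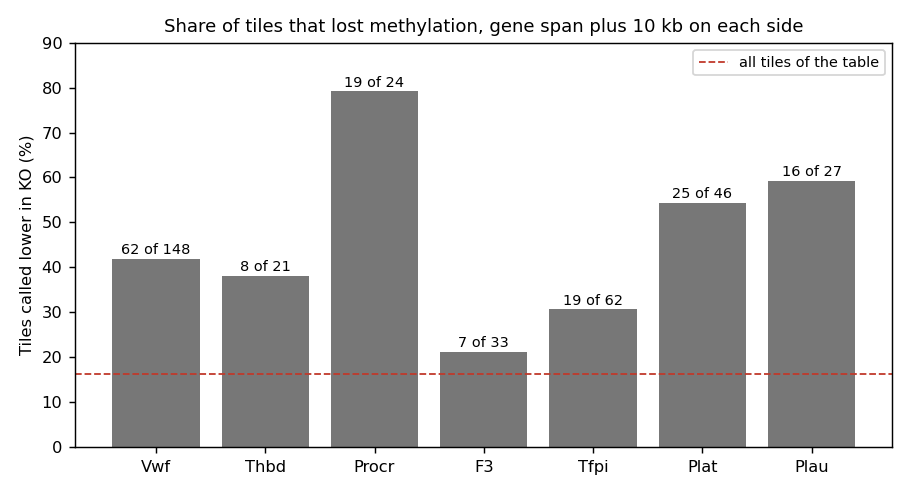
Percent of the 1 kb tiles of each gene window (gene span plus 10 kb on each side) called lower in KO, with counts over the bars; the dashed line is the share over all tiles, 16.2%. Procr stands highest at 79.2% and F3 lowest at 21.2%.

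Whole windows, averaged over their tiles, fell for 7 of the 7 genes (at least 5 points and an adjusted p under 0.05), against 56.4% of all protein-coding genes. Procr (-17.5 points), Plau (-16.4) and Plat (-14.1) had the largest window differences. Vwf (-10.1), Thbd (-9.48), Tfpi (-8.20) and F3 (-6.24) followed, and the median of all genes was -5.58. The 7 windows had adjusted p from 5.39e-07 to 0.000261 (limma). After centring, 4 of the 7 were called, against 17.0% of all genes (Tfpi -3.31, Thbd -4.59 and F3 -1.35 points were not). After scaling, 4 were called, also against 17.0% (Tfpi -3.38, F3 -1.33 and Vwf -4.54 were not). With 5 kb flanks Thbd, at -3.78 points, was not called.

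Calls were fewer at starts than over bodies and flanks, whose minimum difference was smaller. None of the 3 starts with a known strand was called, against 17.4% of 16077 starts. At an unadjusted p under 0.05, 2 of the 3 were lower, as were 8430 of the 16077 starts (limma). A start here is the mean of tiles that overlap 1000 bp on either side of the annotated gene start. Of the 8 gene ends of the genes without strand 4 fell, against 19.6% of gene ends. Bodies, the tiles inside a gene and outside its start, fell in 5 of 7 genes, against 52.0% of bodies (threshold 5 points). Of the flanks, which exclude the start, 2 of 3 upstream and 3 of 3 downstream ones fell, against 54.0% and 53.1%, and so did 7 of the 8 flanks given by coordinate, against 53.7%. Differences between these places were not tested.

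**Figure D2:**
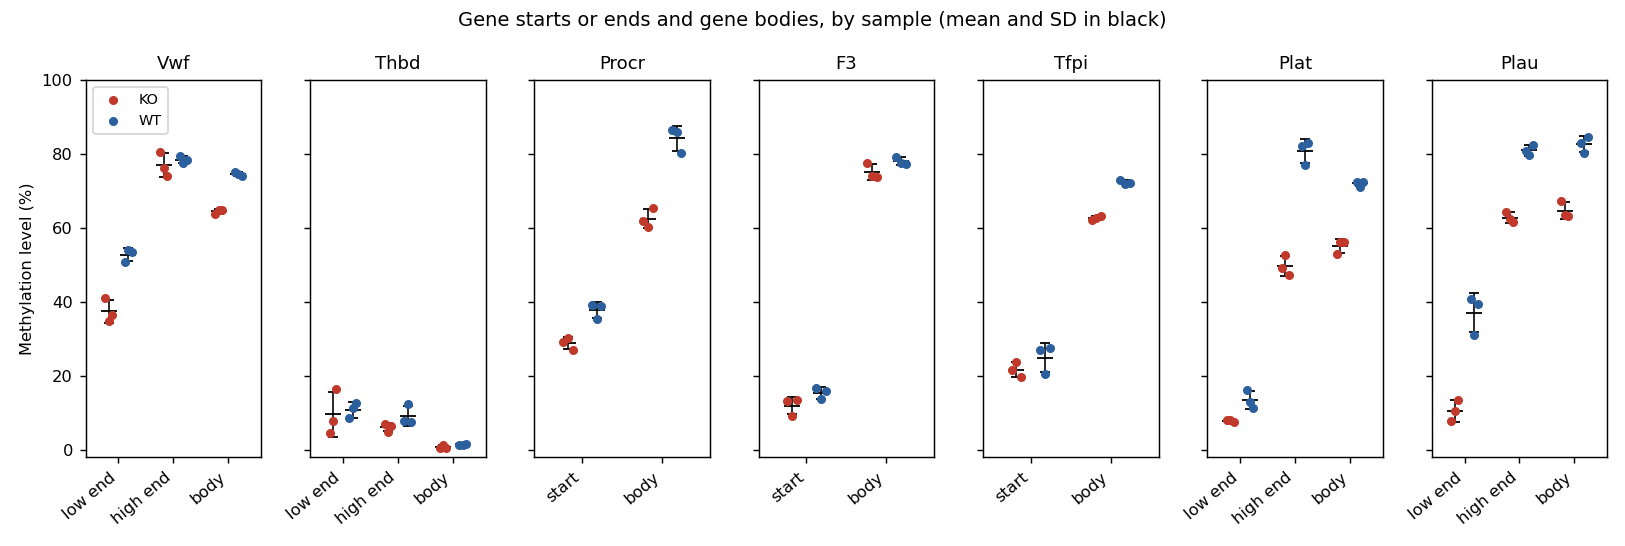
Methylation level in percent at starts (or at both gene ends, where the strand is not in the table) and over bodies of the 7 genes; points are single samples, KO red and WT blue, black bars mean and SD (n = 3). Starts of F3 and Tfpi and all 3 places of Thbd lie close together in KO and WT, while the bodies of Procr, Plat and Plau are apart by 16.8 to 21.7 points.

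Vwf is the longest of the genes (chr6:125552948-125686679), and 62 of its 148 tiles fell (32 after centring, 34 after scaling). At the lower-coordinate end the level was 40.9, 34.8 and 36.4% in KO and 50.6, 54.0 and 53.35% in WT, so every KO sample lay under every WT sample. The difference was -15.3 points (95% interval -20.6 to -9.95, limma adjusted p = 0.000451). Its tile with the end itself was at 37.7, 29.6 and 31.4% in KO and 41.0, 46.6 and 46.5% in WT (-11.8 points, limma adjusted p = 0.0270), a call lost without KO replicate 2 or 3 or WT replicate 2 or 3 (adjusted p up to 0.117), on centring (-6.88 points) and on scaling (-8.66). The higher-coordinate end was at 80.6, 76.3 and 74.0% in KO and 79.4, 77.6 and 78.2% in WT, where the groups overlapped and no call was made (-1.49 points, interval -6.43 to 3.45, limma adjusted p = 0.615). Over 127 body tiles the levels were 63.7, 64.9 and 64.8% in KO and 75.1, 74.4 and 73.9% in WT, and the body fell (interval of the difference -11.65 to -8.36 points, adjusted p = 3.9e-05, limma). Scaling to 1 mean level ended that call, at -4.40 points.

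The loss in Vwf lay toward the lower-coordinate end. The span was cut into 4 segments of equal length, a division made after the values had been seen. The first segment was at 57.3% ± 1.01 in KO and 74.1% ± 0.930 in WT (SD, n = 3), with 24 of 34 tiles called lower. The second was at 57.8% ± 1.01 in KO and 70.8% ± 0.425 in WT, with 21 of 33 called. The third was at 69.9% ± 0.996 in KO and 75.3% ± 0.500 in WT (2 of 32), and the fourth at 72.4% ± 0.576 in KO and 76.3% ± 0.891 in WT (6 of 31). In WT the 4 segments lay within 70.8 to 76.3%, while in KO the first pair, at 57.3 and 57.8%, lay below the other pair. After centring, the called tiles numbered 15, 8, 1 and 2 from the first segment to the fourth, and after scaling 15, 10, 1 and 1. The change along the gene was not tested.

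The largest called loss of any tile of the 7 genes lay in this first segment. The tile chr6:125578001-125579000, inside Vwf, was at 25.6, 15.6 and 14.8% in KO and 76.2, 82.6 and 69.6% in WT (-57.5 points, limma adjusted p = 1.41e-08). It was the bottom of a run of 4 called tiles (3 after centring or scaling), and all KO samples were far under all WT samples. The longest run of adjacent called tiles, 22 kb from 125581001 to 125603000, averaged 54.2% ± 1.24 in KO and 73.4% ± 0.449 in WT, and 12 of its 22 tiles were called after centring and 14 after scaling. Some 4 kb before that tile, a 2 kb valley (125572001 to 125574000) was unmethylated in both groups, at 1.27 and 2.96% in KO and 4.03 and 7.79% in WT, with no call. The flank beyond the lower-coordinate end fell as well, to 57.7% ± 2.81 in KO against 77.2% ± 0.389 in WT (adjusted p = 2.75e-06, limma), and each of its 9 tiles outside the gene was called, 6 of them also after centring and 7 after scaling. Of the 9, 4 overlap the non-coding gene Gm33144. The opposite flank, which reaches into Ano2, was at 55.6% ± 2.48 in KO and 57.1% ± 2.99 in WT (-1.58 points, adjusted p = 0.498, limma).

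The 2 tiles that rose lie side by side near the higher-coordinate end of Vwf. The tile chr6:125683001-125684000 was at 69.6, 67.2 and 75.3% in KO and 62.8, 54.3 and 60.1% in WT, and chr6:125684001-125685000 was at 75.0, 67.3 and 79.2% in KO and 62.8, 57.7 and 60.4% in WT. The rises of 11.6 and 13.5 points had adjusted p of 0.0478 and 0.0196 (limma). The first call ended without any 1 of the 6 samples (adjusted p 0.0524 to 0.191), and the second without KO replicate 1, KO replicate 3 or WT replicate 2 (0.0627, 0.1135 and 0.0654).

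F3, the trigger gene, changed least over its window (chr3:121723537-121735052, 7 of 33 tiles called lower, 3 after centring or scaling). Its start was at 13.1, 9.18 and 13.5% in KO and 16.6, 13.6 and 15.8% in WT. The KO samples lay just under the WT samples, and no call was made (-3.42 points, interval -6.48 to -0.360, limma adjusted p = 0.0664). The tile with the start itself, which covers the window printed above, was at 0.394, 0.761 and 1.36% in KO and 2.17, 1.92 and 1.88% in WT. Over 10 body tiles the level was 77.4, 74.0 and 73.7% in KO and 79.2, 77.5 and 77.3% in WT. Here the groups overlapped (-3.00 points, interval -5.80 to -0.197, adjusted p = 0.0521, limma).

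Called tiles numbered 2 of 13 over the span of F3, 2 of 10 upstream and 3 of 10 downstream, and 1 in each after centring or scaling. The tile chr3:121721001-121722000, before the start, fell to 27.2, 28.9 and 27.5% in KO, against 56.4, 52.8 and 53.4% in WT (-26.4 points, adjusted p = 1.88e-05, limma). The longest run, 3 tiles across the far end (121734001 to 121737000), was at 49.6% ± 1.28 in KO and 64.6% ± 0.887 in WT, with 2 of 3 called after centring or scaling. Upstream and downstream flanks fell by 8.48 and 7.14 points (adjusted p = 0.00175 and 0.00160, limma). Both flank calls ended on centring (-3.58 and -2.25 points) and on scaling (-3.66 and -2.30).

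Tfpi, which blocks the tissue factor pathway, fell over its body, and its start was not called (chr2:84432855-84476775, minus strand, 19 of 62 tiles called lower, 8 after centring and 9 after scaling). The start was at 21.5, 23.7 and 19.6% in KO and 26.9, 20.5 and 27.4% in WT, with overlapping groups (-3.30 points, interval -7.79 to 1.19, limma adjusted p = 0.206). Its tile with the start was at 1.51, 1.37 and 2.78% in KO and 6.62, 1.30 and 3.77% in WT. Over 41 body tiles the level was 62.1, 62.7 and 63.1% in KO and 72.9, 71.8 and 72.2% in WT, which do not overlap (-9.70 points, adjusted p = 4.26e-05, limma). That call ended on centring (-4.80 points) and on scaling (-4.25), both under the 5-point minimum.

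The strongest Tfpi tile lay past its far end, toward Calcrl, a receptor gene of endothelium. The tile chr2:84428001-84429000 was at 39.2, 47.9 and 48.9% in KO and 78.2, 72.2 and 79.6% in WT (-31.3 points, adjusted p = 1.94e-05, limma). It is the middle of a run of 3 called tiles, while the longest run, 4 tiles inside the gene (84451001 to 84455000), was at 59.3% ± 4.89 in KO and 74.5% ± 2.36 in WT. After centring none of these 4 was called, and after scaling 1, while the run of 3 kept its 3 calls. The downstream flank as a whole fell by 9.05 points (adjusted p = 3.44e-05, limma), a call that centring ended at -4.16 points. Its 4 tiles over Calcrl were under 10% in both groups. The upstream flank differed by -0.907 points (interval -4.84 to 3.02, adjusted p = 0.674, limma).

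The span of Thbd was nearly unmethylated in KO and in WT (chr2:148404471-148408188). All 5 tiles over the gene were under 10% in both groups, none was called, and 0 were lower and 0 higher at an unadjusted p under 0.05 (limma). Of the 21 tiles of the window 8 fell, all of them in the flanks, and 4 did after centring or scaling. The body, the 1 tile clear of both ends, was at 0.346, 1.28 and 0.380% in KO and 1.36, 1.22 and 1.62% in WT. The difference of -0.729 points had an interval of -2.22 to 0.763 (limma adjusted p = 0.316). The tile at the higher-coordinate end was at 0.416, 0.625 and 0.295% in KO and 0.333, 0.745 and 0.264% in WT. At the lower-coordinate end KO replicate 3 stood above the rest, with 14.9% in its end tile against 3.25 and 6.67% in the other KO samples and 4.02, 8.65 and 10.9% in WT.

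On both sides of Thbd methylation fell. The flank at the lower coordinate was at 26.1, 26.4 and 26.9% in KO and 38.1, 40.9 and 40.2% in WT (-13.2 points, adjusted p = 4.8e-06, limma). The flank at the higher coordinate was at 81.3, 74.8 and 74.1% in KO and 89.5, 89.6 and 91.0% in WT (-13.3 points, adjusted p = 4.81e-05, limma). Neither pair of groups overlapped. The largest loss lay in the outermost tile, chr2:148394001-148395000, at 14.8, 16.6 and 8.30% in KO and 76.4, 62.0 and 45.9% in WT (-48.2 points, adjusted p = 1.24e-06, limma). It opens the longest run of Thbd, 4 tiles that take in the neighbouring somatostatin receptor gene Sstr4, at 11.3% ± 2.18 in KO and 34.6% ± 4.73 in WT, of which 2 were called after centring and 3 after scaling. The 6 tiles between that run and the gene were not called.

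Procr had the highest share of changed tiles, 19 of 24 (11 after centring or scaling), and no tile of its window overlaps another RefSeq gene (chr2:155751125-155755478). Its start was at 29.0, 30.3 and 27.0% in KO and 39.1, 35.4 and 38.95% in WT. All KO samples lay under all WT samples, and the difference of -9.07 points (interval -13.2 to -4.91, limma adjusted p = 0.00323) missed only the 10-point minimum. Without WT replicate 2 it was -10.3 points and was called, and within 2000 bp of the start it was -15.1 points and was called. The tile with the start itself was at 4.74, 4.85 and 3.75% in KO and 6.47, 4.45 and 6.07% in WT, with overlapping groups. The tile before it was at 17.3% ± 0.987 in KO and 25.0% ± 3.6 in WT, also under the minimum.

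Away from the start Procr lost methylation on every side. Its 2 body tiles were at 61.9, 60.2 and 65.3% in KO and 86.4, 86.0 and 80.2% in WT (-21.7 points, adjusted p = 0.000114, limma), the largest body difference of the 7 genes. The upstream flank fell to 41.3% ± 1.44 in KO, against 59.9% ± 0.600 in WT, and the downstream flank to 46.9% ± 2.45 in KO, against 65.3% ± 2.18 in WT (adjusted p = 2.26e-06 and 3.76e-06, limma). The tile with the largest loss, chr2:155745001-155746000, was at 30.1, 25.7 and 19.2% in KO and 67.5, 76.4 and 66.3% in WT (-45.1 points, adjusted p = 2.49e-07, limma). It belongs to a run of 6 called tiles (4 after centring or scaling) between the start and a 2 kb valley (155742001 to 155744000) that was under 10% in both groups. The longest run, 9 tiles from 155752001 to 155761000, covered the gene beyond its start tile and the sequence after it, at 50.6% ± 1.77 in KO and 70.1% ± 2.33 in WT, with 5 of 9 called after centring or scaling.

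**Figure D3:**
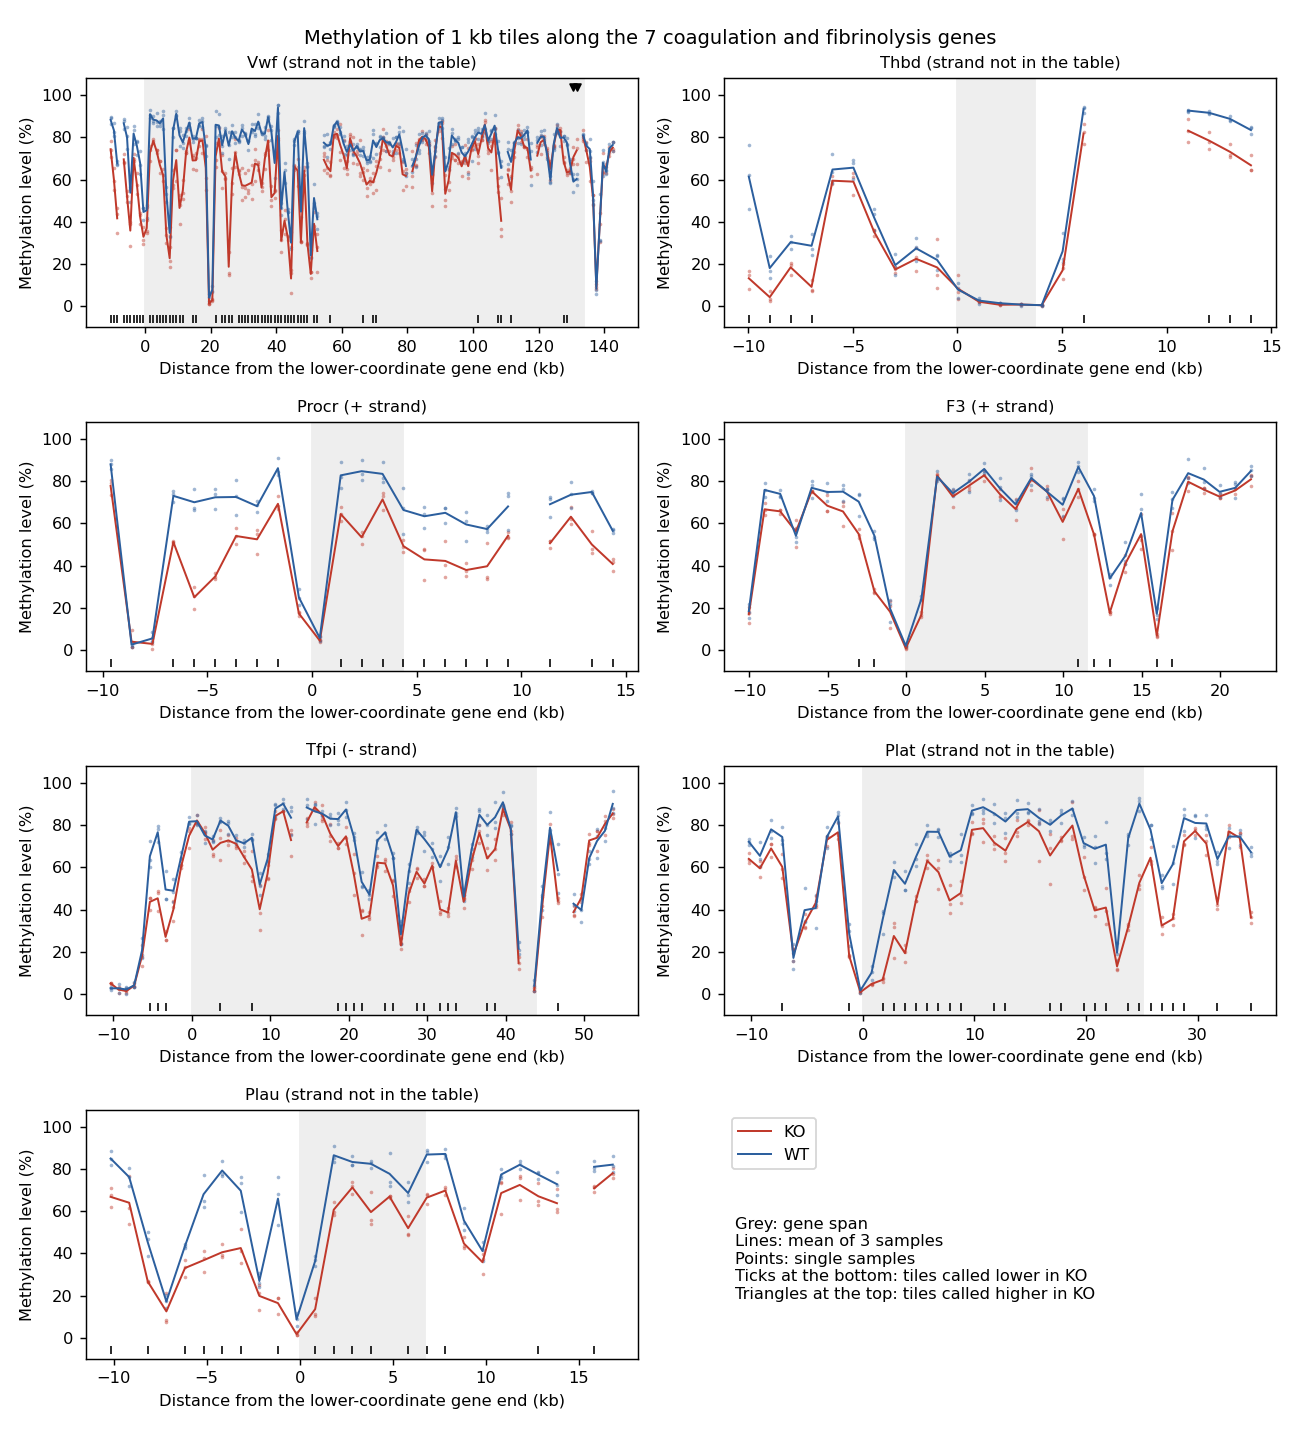
Methylation level in percent of each 1 kb tile against distance in kb from the lower-coordinate end of the gene; lines are means of the 3 KO (red) and 3 WT (blue) samples, points single samples, grey the gene span, and marks show tiles called lower or higher in KO. KO and WT lie close together in the tiles under 10% in both groups, such as the span of Thbd. In 5 of these 20 tiles all KO samples still lay below all WT samples. In Vwf the groups separate mostly toward the lower coordinate.

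Plat, which encodes the tissue-type activator, fell in 25 of 46 tiles, 15 after centring or scaling (chr8:22757722-22782848). Its lower-coordinate end was low in both groups, at 8.004, 7.93 and 7.55% in KO and 16.1, 12.8 and 11.2% in WT. The groups did not overlap, and the difference of -5.54 points (interval -8.20 to -2.87, limma adjusted p = 0.00362) was under the 10-point minimum. The higher-coordinate end was at 49.2, 52.7 and 47.1% in KO and 82.2, 76.9 and 82.8% in WT. This loss of 31.0 points was the largest at any end of the 4 genes without strand (adjusted p = 5.42e-06, limma).

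The body of Plat was at 53.0, 56.1 and 56.2% in KO and 72.4, 71.1 and 72.4% in WT (-16.8 points, adjusted p = 3.49e-05, limma). Called tiles made up 17 of the 26 over the span, and 11 after centring or scaling. A run of 8 tiles from 22759001 to 22767000, just inside the low end, was at 38.9% ± 3.77 in KO and 62.3% ± 3.13 in WT, with 7 of 8 called after centring or scaling. At the other end the tile chr8:22781001-22782000 was at 33.0, 32.1 and 30.3% in KO and 74.9, 70.7 and 75.9% in WT (-42.0 points, adjusted p = 2.65e-07, limma), and it opens a run of 6 tiles at 48.2% ± 1.13 in KO and 73.2% ± 3.07 in WT (4 of 6 after centring or scaling). The flank at the higher coordinate, which enters Ap3m2, fell by 13.4 points (adjusted p = 7.05e-05, limma). The flank at the lower coordinate fell by 5.37 points (adjusted p = 0.0181, limma), a call that ended without KO replicate 3 (-4.16 points), without WT replicate 1 (-5.03, adjusted p = 0.0545), on centring (-0.474) and on scaling (-0.674).

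Plau, the urokinase gene, fell at both ends and over its body (chr14:20836662-20843388, 16 of 27 tiles called lower, 11 after centring or scaling). The lower-coordinate end was at 7.61, 10.5 and 13.5% in KO and 40.6, 31.0 and 39.4% in WT (-26.5 points, adjusted p = 6.72e-06, limma). The highest KO sample was 13.5% and the lowest WT sample 31.0%. The tile with that end was low in both groups, at 1.27, 1.11 and 2.59% in KO and 8.79, 5.75 and 11.5% in WT, and its -7.03 points (adjusted p = 0.00115, limma) were under the minimum. Its neighbour chr14:20835001-20836000 carried the largest loss, with 11.3, 19.0 and 18.9% in KO and 76.2, 53.4 and 68.2% in WT (-49.6 points, adjusted p = 2.44e-07, limma).

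The higher-coordinate end of Plau was at 64.2, 62.5 and 61.5% in KO and 80.7, 79.6 and 82.3% in WT (-18.2 points, adjusted p = 7.63e-05, limma). Its 4 body tiles were at 67.2, 63.3 and 63.3% in KO and 82.8, 80.2 and 84.5% in WT (-17.9 points, adjusted p = 7.56e-05, limma), again without overlap. The flank at the lower coordinate fell to 38.1% ± 3.04 in KO, against 56.8% ± 1.09 in WT (adjusted p = 3.91e-06, limma), and held a run of 4 called tiles from 20830001 to 20834000 at 38.2% ± 4.53 in KO and 65.1% ± 0.880 in WT (3 of 4 after centring or scaling). The other flank fell by 8.52 points (adjusted p = 0.00146, limma), a call that ended on centring (-3.63) and on scaling (-3.12).

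**Figure D4:**
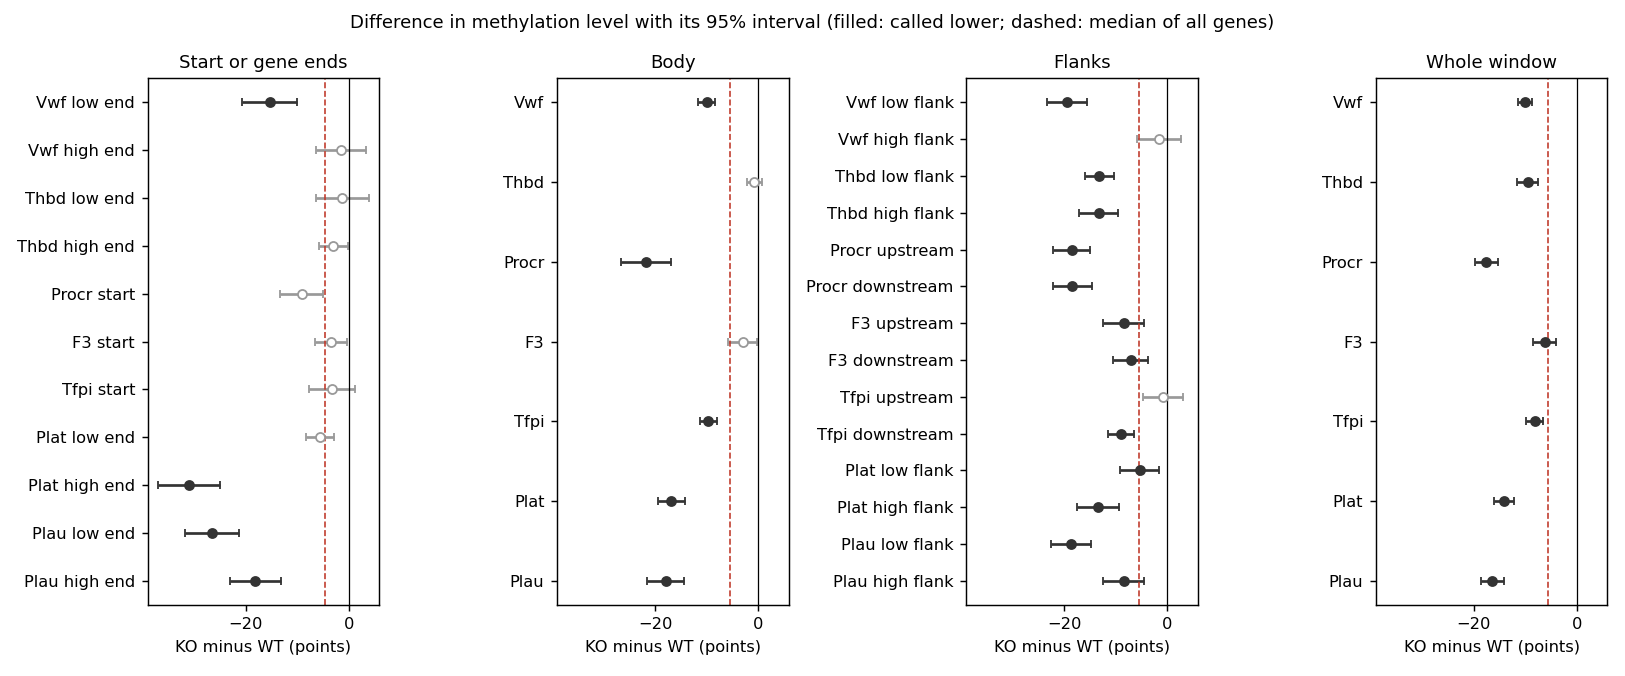
Difference in methylation level, KO minus WT in percentage points, with its 95% interval from limma, for starts or gene ends, bodies, flanks and whole windows of the 7 genes; filled points are called lower, open points are not called, and the dashed line is the median of all genes for starts, bodies, flanks or windows. The higher-coordinate end of Plat, at -31.0 points, lies farthest left, and no point lies right of 0.

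Each of the 7 windows had at least 1 tile under 10% in both groups (5 in Thbd, 5 in Tfpi, 3 in Vwf, 3 in Procr, 2 in Plat, 1 in F3 and 1 in Plau), some of them over a neighbouring gene. These 20 tiles, under 10% in WT, could not fall by 10 points, so that 0 of them were called lower was fixed by the threshold (3.25% of all tiles with a mean under 10% were). At an unadjusted p under 0.05, 4 of the 20 were lower and 1 higher (limma). Of the 65 tiles with a mean of 10 to 50% over all 6 samples, 53.8% fell, against 38.7% of all such tiles. Of the 222 tiles at 50 to 80%, 48.65% fell, against 15.6%, and of the 54 tiles at 80% and over, 24.1% fell, against 7.42%. After centring the calls numbered 19, 62 and 3 in these 3 classes, and after scaling 24, 61 and 2. The shares of all tiles by class are not given for those settings, so these counts cannot be set against them.

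Other genes of clotting and fibrin breakdown were taken from lists by role, 50 genes in all. At starts with a known strand 17 of 40 fell, against 17.4% of all starts, and over bodies 23 of 44, against 52.0% (limma). None was called higher, and 0 were higher at an unadjusted p under 0.05 in limma. Of all genes, 79 of 16077 starts and 33 of 17522 bodies were higher at that p. The median difference was -7.94 points at these starts (-4.54 over all starts) and -5.07 over these bodies (-5.35 over all bodies). After centring, 8 of the 40 starts fell, against 7.08% of all starts, and 10 of the 44 bodies, against 18.7% of all bodies. After scaling, 9 starts fell, against 10.03%, and 8 bodies, against 17.4%. The shares of bodies were near those of all genes. In each, 1 of the 44 bodies rose, against 2.39% of all bodies after centring and 5.67% after scaling. At an unadjusted p under 0.05, 1 start and 5 bodies were higher after centring, and 1 start and 11 bodies after scaling (limma). Of all genes, 2787 of 16077 starts and 3072 of 17522 bodies were higher after centring. After scaling 837 starts and 4776 bodies were. The median over these bodies was -0.175 points after centring and 0.683 after scaling, where its sign turned. Over all bodies the median was -0.4595 after centring and 0.2465 after scaling, so its sign turned there as well. Genes named below were called before centring or scaling, and which of them kept the call is not given.

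Of the fibrinolysis genes 3 of 8 starts and 7 of 11 bodies fell, against 17.4% of all starts and 52.0% of all bodies. The start of Plaur, the receptor that Plau binds, was at 30.5% ± 3.38 in KO and 55.6% ± 0.562 in WT (adjusted p = 2.37e-05, limma), and its body at 56.9% ± 3.59 in KO and 69.5% ± 1.65 in WT. Serpine2, an inhibitor of thrombin and of plasminogen activators, had a start at 22.4% ± 1.71 in KO and 37.6% ± 3.94 in WT, and Plgrkt, a plasminogen receptor, one at 25.5% ± 5.90 in KO and 36.3% ± 1.57 in WT. The bodies of Anxa2 (47.5% ± 0.810 in KO, 64.7% ± 0.970 in WT) and S100a10 (63.7% ± 3.62 in KO, 76.0% ± 0.608 in WT) fell too. These encode the pair that forms a surface docking site for tPA and plasminogen.

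Of the thrombin and platelet receptors and the genes that handle VWF, 8 of 10 starts and 6 of 9 bodies fell. The shares of all starts and all bodies were 17.4% and 52.0%. The start of F2r, the thrombin receptor PAR1, was at 9.44% ± 1.40 in KO and 26.6% ± 2.84 in WT (adjusted p = 2.29e-05, limma), and its body at 68.7% ± 1.97 in KO and 81.8% ± 0.671 in WT. Subunits of the platelet receptor for VWF fell at their starts, Gp1bb at 2.84% ± 0.383 in KO and 24.3% ± 2.16 in WT and Gp9 at 49.1% ± 7.66 in KO and 65.0% ± 2.46 in WT. Over bodies Selp, the P-selectin that is stored beside VWF, was at 52.7% ± 1.22 in KO and 64.65% ± 1.17 in WT. F2rl1, another protease receptor, stood at 67.0% ± 2.81 in KO and 77.5% ± 1.37 in WT.

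Of the anticoagulants 1 of 8 starts and 6 of 10 bodies fell, near the 17.4% of all starts and 52.0% of all bodies. Anxa5, which covers exposed phosphatidylserine, had its start at 12.8% ± 0.238 in KO and 31.4% ± 1.62 in WT (adjusted p = 5.44e-06, limma) and its body at 65.4% ± 1.21 in KO and 77.2% ± 0.574 in WT. Entpd1, an ectonucleotidase that clears the platelet agonist ADP, had its body at 53.3% ± 0.766 in KO and 67.8% ± 0.806 in WT, and Tfpi2 had its own at 67.75% ± 0.367 in KO and 75.1% ± 1.27 in WT. Of the clotting factors, which are mostly made by liver, 5 of 14 starts and 4 of 14 bodies fell, against the same 17.4% and 52.0%. F5 (29.8% ± 2.12 in KO, 46.25% ± 0.465 in WT), F2 (55.85% ± 0.938 in KO, 68.2% ± 3.54 in WT) and Vkorc1 (32.2% ± 1.74 in KO, 43.3% ± 4.24 in WT) had the largest called differences at starts. Ggcx (69.7% ± 1.78 in KO, 79.3% ± 1.49 in WT), F12 (40.2% ± 4.12 in KO, 49.6% ± 1.73 in WT) and Fga (68.8% ± 2.86 in KO, 76.8% ± 1.54 in WT) had them over bodies.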

How the data were processed

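Per the labels' protocols, 30 ng of DNA per sample went into tagmentation-based bisulfite sequencing, with 3 libraries per sample read as paired ends of 100 bases. The submitters' processing notes name BWA 0.7.8 and the mm10 build. The authors deposited 1 table with the methylation level of each 1 kb tile as a fraction, per the file headers. No source used here states the caller, any smoothing, a coverage filter or how tiles were chosen. There are 0 missing values and 0 levels of exactly 0.

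Levels were turned into percent and averaged over the tiles of each region. Gene spans came from RefSeq (GRCm38.p6), and strands from its promoter windows, for 16457 of 20665 protein-coding genes. KO was compared with WT (3 samples each) by limma 3.58.1 (R 4.3.3) with a variance trend, fitted over all regions of a kind with Benjamini-Hochberg adjustment; the steps were tested on simulated data. The design foresaw starts for all genes, and without a strand both ends were used. Tables were joined with pandas 2.3.3 under Python 3.11.15 and drawn with matplotlib 3.10.9. All 7 genes are named, each with its start or end tiles, its largest called loss and gain and its longest run, and up to 3 called starts and bodies of each other list. The genes and lists were chosen with earlier results of these data known. Alternatives changed the variance model, scale, normalization, thresholds, windows, samples and a replicate block.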

Additional observations from a re-analysis of the deposited data

How the results depend on the processing

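Levels carry no read counts, so shallow tiles cannot be told from deep ones, and the genome-wide loss bears on every call. The median of all tiles was -4.05 points, 0.843 after centring and 1.42 after scaling. Alternatives for gene ends, coordinate flanks, named tiles, tile counts by gene and the role lists were chosen after seeing the data. Of the 361 tiles, 84 were called lower (3 higher) after centring, 87 (4) after scaling, 60 with a minimum of 20 points, and 97 of 230 within gene spans; without 1 sample 126 to 150 were. Counts without a variance trend (147, against 14.95% of all tiles) and on the M-value scale (154, against 16.4%) were closer to 156. The mean difference over these tiles was -5.95 points centred and -5.90 scaled, and -11.1 to -10.5 without 1 sample. Of the 3 starts, 1 (Procr) was called with no minimum and 1 within 2000 bp, and 0 to 1 without 1 sample. The shares of all starts in these settings were 44.3%, 21.4% and 17.1 to 18.5%. Called bodies were 3 after scaling, against 17.4% of all bodies. The body of Tfpi also lost its call on centring and, at -9.70 points, with the higher minimum of 10 points. The shares of all bodies there were 18.7% and 19.4%. Called upstream flanks were 1 with the higher minimum, 1 centred and 1 scaled, against 20.7%, 19.6% and 19.4% of all upstream flanks. Called downstream flanks were 1 with the higher minimum and 1 centred, each against 18.2% of all downstream flanks. On scaling the downstream flank of F3 lost its call too. Called windows were 4 with the higher minimum, 4 centred and 4 scaled, against 16.4%, 17.0% and 17.0% of all genes. Called gene ends without strand were 2 with the higher minimum, against 3.6% of gene ends. Of 429 recomputed differences of the 7 genes, 20 were no longer called, 1 became called, 16 changed sign, none of those called to begin with, and the others kept direction and side of the threshold.

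Signs turned after centring at the starts of Tfpi (1.60) and F3 (1.47), the ends of Thbd (3.67 at the lower, 1.89 at the higher) and the higher end of Vwf (3.40). They also turned over the bodies of Thbd (4.16) and F3 (1.89), the upstream flank of Tfpi (3.98), the higher flank of Vwf (3.31), and the end tiles of Vwf (4.44), Thbd (4.89), Procr (3.67), F3 (3.74), Tfpi (2.88) and Plat (4.11). Centring adds the same amount to each difference (-0.002 became 4.89 in the higher end tile of Thbd). The body of Thbd (1.40% in WT) lay below that amount. So did the end tiles of Thbd (0.447% in WT), F3 (1.99%), Tfpi (3.90%) and Plat (1.60%). Their turns were therefore fixed by the setting. After scaling they turned at the higher end of Vwf (4.80), the body of F3 (3.20), the flanks of Tfpi (4.36) and Vwf (2.996), and the end tiles of Vwf (6.08) and Thbd (0.0336). Without 1 sample the difference ranged from -4.63 to 1.29 at the lower end of Thbd, -2.05 to 0.244 upstream of Tfpi, -2.86 to 0.0663 at the higher flank of Vwf, -1.95 to 0.526 in its higher end tile, and -2.90 to 2.95 and -0.0938 to 0.146 in the lower and higher end tiles of Thbd. Centring and scaling remove the overall loss by construction; the other causes were not tested. Same-numbered samples did not deviate together from their group means (correlations 0.006, -0.003 and 0.011). Such correlations cannot exclude a pairing, and no source used here states one. With the replicate block 155 tiles were called lower.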
